A study of Mus musculus with 12 samples.

Results

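The nuclear-encoded genes of the mitochondrial respiratory chain were followed across 12 RNA-seq libraries of immortalized mouse small cholangiocyte cells (SMCCs), a cell line of the bile duct epithelium. They were taken from the count table by symbol, as the Nduf subunits of complex I, the Sdh subunits of complex II, the Uqcr subunits of complex III, the Cox4 to Cox8 subunits of complex IV and the Atp5 subunits of complex V. This gave 83 of 24421 genes, of which 36 belong to complex I, 4 to complex II, 8 to complex III, 18 to complex IV and 17 to complex V by their symbols. Every group was transfected and had 3 libraries. The si-CTL and si-Ctnnb1 groups received, for 24 hr and with Lipofectamine RNAiMAX, either control siRNA or one that silences Ctnnb1, the gene of β-catenin. The eGFP and S45Y groups received, for 48 hr and with Lipofectamine 3000, a plasmid that encodes either eGFP or β-catenin with the stabilizing S45Y mutation. All libraries came from 1 cell line, and the labels do not say whether replicates were separate cultures, so the p-values measure the spread between these libraries, which may be technical.

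The respiratory chain passes electrons from NADH (complex I) and succinate (complex II) through complex III to complex IV, where oxygen is reduced. The proton gradient built on the way drives ATP synthase, which is complex V. Most subunits are encoded in the nucleus, and their promoters are known for binding sites of NRF1, GABP and YY1. In cholangiocytes, as in other epithelia, the chain supplies ATP for the transport of ions across the membrane.

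Total counts per library ranged from 221767 to 326686 for the siRNA groups and from 91468 to 122304 for the plasmid groups. At these depths a count of 0 allows up to 3 counts, which is between 9.99 and 38.2 CPM (counts per 1000000, scaled by TMM). This floor covers counting error only and takes single counts as independent. The ribosomal RNA precursor Rn45s took 3.64% to 5.50% of the counts in si-CTL, 1.61% to 2.44% in si-Ctnnb1 and 10.03% to 15.4% in the plasmid libraries. Ctnnb1 itself had 13, 38 and 28 counts in si-CTL and 0, 11 and 3 in si-Ctnnb1 (log2 fold change -2.54, adjusted p = 0.00491 in edgeR). It shares 759 exon bases with a gene on the other strand, and the part of strand in its counts was not tested. In the plasmid libraries it had 6, 11 and 10 counts (eGFP) and 11, 4 and 18 (S45Y), which overlapped (log2 fold change 0.51, adjusted p = 0.989 in edgeR), so higher Ctnnb1 was not shown with S45Y. The study reports higher activity of a β-catenin-TCF reporter with S45Y in SMCCs, which these counts do not measure. Of 13 cholangiocyte markers, Krt18, Spp1, Krt8, Krt19 and Slc4a2 had the most counts, whereas Epcam, Onecut1, Cftr and Aqp1 had no count in any library. The markers of hepatocytes, stellate cells and fibroblasts, blood cells and endothelium were at 0 throughout for 14 of 25 genes, Alb, Col3a1, Ptprc and Pecam1 among them, and Cd68 was the most counted of the others with 174 counts. In bulk RNA, fewer cells of a type and less RNA per cell cannot be told apart.

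Counts were sparse, which limited what could be seen of these genes. Gapdh, a housekeeping gene in the study's PCR, had only 13 counts over all libraries. Counts may thus not rank genes by their mRNA level, and the reason was not tested. The 83 genes held 6664 of 2424120 counts (0.275%), and 7 of them had no count in any library, namely Ndufb4, Ndufc1, Ndufs5, Cox6a2, Cox6b2, Cox7b2 and Cox8c. Of the 996 values of single genes in single libraries, 41.9% were 0. At least 10 counts were reached in 3 or more libraries by 15 genes, in 2 libraries by 3 genes, in 1 library by 5 genes and in no library by 60 genes. The genes just inside that limit were Ndufb8, Atp5k, Ndufa13 and Ndufa6, with 61, 71, 75 and 86 counts in all. Those just outside it were Atp5g3, Uqcrq and Ndufb7, with 51, 56 and 59.

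A pair of ATP synthase genes held most of the counts. Atp5j had 2092 counts over all libraries and Atp5f1 had 1678, which were 31.4% and 25.2% of the counts on all 83 genes. Both encode subunits of the peripheral stalk, the arm that holds the catalytic head of ATP synthase still against the turning rotor. The other members of that stalk were far lower, with 135 counts for Atp5h and 25 for Atp5o. Atp5b and Atp5a1, which encode the catalytic β subunit and the α subunit of the head, had 261 and 150 counts. Per kilobase of exon, Atp5j had 668 counts and Atp5f1 409, ranks 207 and 322 of 23982 genes with a gene model. Ndufa2 followed among the 83 genes with 199 counts per kilobase, and the median over the 82 genes with a gene model was 11.7, against 0.800 over all genes with a model.

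Atp5j and Atp5f1 share a layout that the choice by symbol did not use, since the start of each overlaps the start of a gene on the other strand. Atp5j lies on chromosome 16 of mm10 from 84827866 to 84835625 on the minus strand, and its exons overlap those of Gabpa by 397 bases. Gabpa encodes the DNA-binding subunit of GABP, a regulator of respiratory chain genes. Atp5f1 lies on chromosome 3 from 105942698 to 105960099 on the minus strand and overlaps Wdr77, a partner of the arginine methyltransferase Prmt5, by 337 bases. Short windows of their RefSeq promoters (GRCm38.p6, the assembly of mm10) are shown because they hold motifs known from respiratory chain promoters. Those of Atp5j lie within the stretch shared with Gabpa, and that of Atp5f1, listed by RefSeq as Atp5pb, lies just outside the stretch shared with Wdr77. All are written 5′ to 3′ along the minus strand of the genome, with the motif in capitals.
Atp5j, NRF1 motif, chr16:84835105-84835134: aggccagaataCGCATGCGtacagtgcagt
Atp5j, YY1 motif, chr16:84835046-84835075: aaagtgtaggaAAGATGGCggagtcttagc
Atp5j, GABPA motif, chr16:84835019-84835048: agctgagggacCCGGAAGcacttaccctcc
Atp5f1, YY1 motif on the other strand, chr3:105959248-105959277: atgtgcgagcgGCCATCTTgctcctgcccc

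The letters searched on both strands were CGCATGCG for NRF1, CCGGAAG for GABPA and AAGATGGC for YY1, and none of these motifs contains another. A promoter of 250 bases before to 50 after a start was found for 69 of the 83 genes. The NRF1 letters were in 12.0% of the promoters of these genes (75 in all) and in 1.87% of all 32851 promoters of that length. For GABPA the shares were 21.3% and 8.86%, and for YY1 they were 16.0% and 2.75%. All 3 motifs were present for Atp5j. A match is a stretch of letters, not a measured binding site. The same search found the NRF1 letters at the start of Atp5k, a subunit of the membrane part of ATP synthase that takes part in its dimerization, and the GABPA letters at Atp5h. It also found the GABPA letters at Atp5k and Ndufs8 and the YY1 letters at Ndufb8, which are not shown. Windows were not listed for all named genes.
Atp5k, NRF1 motif, chr5:108434430-108434459: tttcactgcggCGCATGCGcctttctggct
Atp5h, GABPA motif on the other strand, chr11:115419939-115419968: caaggagagaaCTTCCGGcaactctcttcc

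Exons shared with a gene of the other strand were found for 24 of the 82 genes with a model (29.3%, against 24.2% of all genes with one). These 24 genes held 4568 counts, or 68.5% of the counts on all 83, most of them on Atp5j and Atp5f1. Their median was 24.5 counts, near the 20.0 of the genes without an overlap. The strand setting of the counting is not given in the sources used here, so reads of the overlapping genes cannot be told apart without it. Gabpa had 339 counts against 2092 of Atp5j, and Wdr77 had 18 against 1678 of Atp5f1. The reverse order was seen for Ndufs1, which encodes the largest iron-sulfur subunit of complex I, with 122 counts against 1936 of Ino80dos and 177 of Eef1b2, and for Atp5a1, with 150 counts against 241 of Haus1. Of the 21 genes whose overlapping partner is in the table, the partner had more counts for 14 and the respiratory chain gene for 7.

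**Figure D1:**
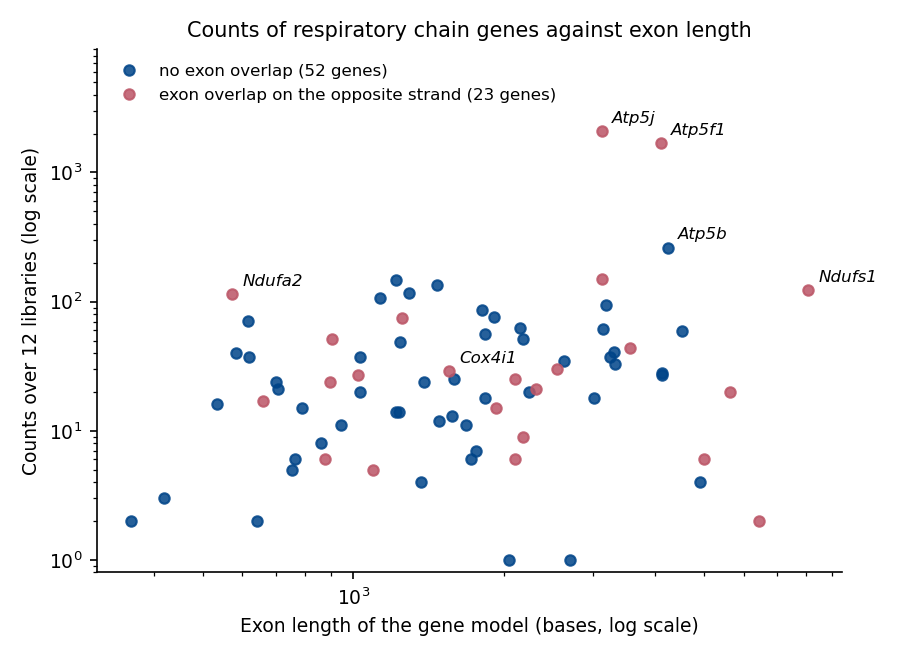
Counts over 12 libraries (y axis, log scale) of the 75 respiratory chain genes with a gene model and at least 1 count, against the exon length of the gene model in bases (x axis, log scale). Atp5j (2092 counts) and Atp5f1 (1678 counts) lie above all others, and both have an exon overlap on the opposite strand, as do 21 genes with fewer counts.

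As a share of all counts, the 83 genes took 0.307%, 0.286% and 0.282% of the si-CTL libraries and 0.282%, 0.250% and 0.301% of the si-Ctnnb1 libraries. These ranges overlapped. The shares were 0.288%, 0.278% and 0.249% in eGFP and 0.216%, 0.257% and 0.211% in S45Y. The S45Y libraries lay lower on average, at 0.228% ± 0.0249 against 0.272% ± 0.0201 (SD, n = 3 each), but the highest S45Y library was above the lowest eGFP library. Of totals without Rn45s the shares did not overlap, at 0.329%, 0.309% and 0.295% with eGFP and 0.255%, 0.286% and 0.244% with S45Y. The picture differed between genes with and without exons shared with the other strand. The 58 genes without such an overlap took 0.0884%, 0.102% and 0.0871% of the si-CTL libraries and 0.0798%, 0.0641% and 0.0716% of the si-Ctnnb1 libraries. They took 0.113%, 0.109% and 0.106% with eGFP and 0.0678%, 0.0793% and 0.0835% with S45Y. In both comparisons the treated libraries then lay below all their controls, a description to which no test was applied. The 24 genes with such an overlap, which hold most of the counts, overlapped in both comparisons, at 0.198% in si-CTL and 0.205% after silencing, and at 0.161% with eGFP and 0.151% with S45Y on average. Beside the silencing shares, the summed cholangiocyte markers were at 970 to 1344 per 1000000 counts in si-CTL and 878 to 957 in si-Ctnnb1, and Rn45s was lower in all si-Ctnnb1 libraries. The part of these in the shares was not tested. The exact (Clopper-Pearson) 95% interval of the share of all 83 genes was 0.186% to 0.239% for the lowest of the 12 libraries, S45Y replicate 3, and 0.285% to 0.331% for the highest, si-CTL replicate 1. These intervals cover counting error only and take single counts as independent. Small even counts were frequent, as given in the last section, so the intervals may be too narrow. Replicate libraries differed by 2.06 to 2.61 times the sampling noise (chi-square per degree of freedom), a value that also takes counts as independent.

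By complex, as assigned by symbol alone, the 17 Atp5 genes held 69.6% of the counts and the 36 Nduf genes 20.0%. Complexes II, III and IV were thinly covered, with 98, 215 and 382 counts over all 12 libraries. Sdha and Sdhb, the catalytic pair of complex II, had 27 and 20 counts, and Cox4i1, the regulatory subunit of complex IV, had 29. Complex III averaged 0.00859% ± 0.00281 of the library total in si-CTL and 0.00770% ± 0.000617 in si-Ctnnb1. In eGFP it was 0.00848% ± 0.00147, and S45Y had 0.0136% ± 0.00285 (SD, n = 3 each). There the 3 S45Y libraries lay above the 3 eGFP libraries, on 41 and 30 counts in all. Complex V, with most of the counts, stood apart the other way, at 0.170%, 0.165% and 0.167% in eGFP against 0.144%, 0.164% and 0.1099% with S45Y. Without Atp5j and Atp5f1 the other 15 genes of complex V overlapped between eGFP and S45Y as shares of all counts. Of totals without Rn45s they did not overlap, at 0.0434%, 0.0536% and 0.0573% with eGFP and 0.0335%, 0.0430% and 0.0335% with S45Y. Between si-CTL and si-Ctnnb1 the whole of complex V overlapped, at 0.210% ± 0.0213 and 0.203% ± 0.0198 (SD, n = 3 each). Complexes II and IV overlapped between S45Y and eGFP, at 9 and 25 counts for complex II and 41 and 71 for complex IV. They overlapped between si-Ctnnb1 and si-CTL too, at 30 and 34 counts for complex II and 120 and 150 for complex IV. Complex I averaged 0.0514% ± 0.00474 in si-CTL, 0.0502% ± 0.00417 under silencing, 0.0693% ± 0.00839 in eGFP and 0.0589% ± 0.0151 in the S45Y libraries, so that the eGFP libraries lay above the siRNA libraries while the S45Y libraries overlapped all other groups.

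**Figure D2:**
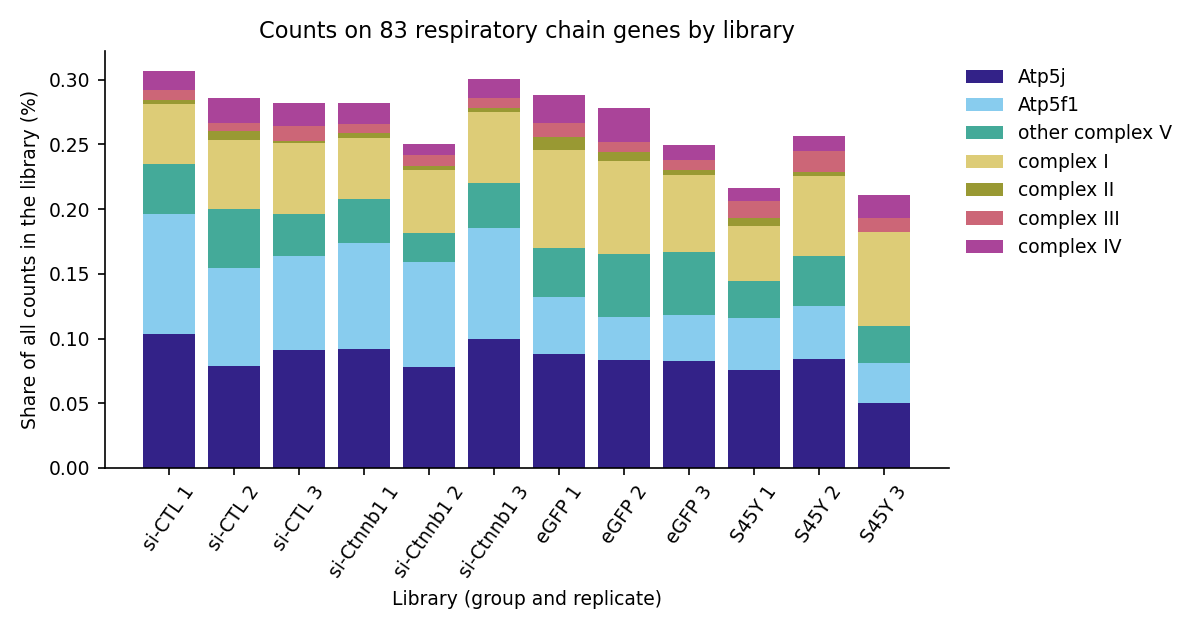
Share of all counts in each library (y axis, percent) that fell on the 83 genes, stacked by complex with Atp5j and Atp5f1 apart, for 3 libraries of each of 4 groups (x axis). The total lay between 0.211% and 0.307%, and the Atp5f1 segment was thinner in all 6 plasmid libraries than in the 6 siRNA libraries.

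The first comparison asks whether loss of β-catenin altered these genes. None of the 13 that could be tested passed an adjusted p of 0.05 between si-Ctnnb1 and si-CTL (quasi-likelihood test of edgeR, adjusted by Benjamini-Hochberg over 3484 genes, of which 1.55% passed). At an unadjusted p below 0.05 there were 3, against 12.5% of all genes tested, of which 2 were higher in si-Ctnnb1 (6.43% of all genes) and 1 was lower (6.08%). The median log2 fold change of the 13 was 0.069, and that of all genes tested was -0.0033. DESeq2 gave an adjusted p to 3 of the 13, and 0 passed.

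Ndufa13, also called GRIM-19, is an accessory subunit needed for complex I assembly. It had 1, 7 and 6 counts in si-CTL and 16, 11 and 17 in si-Ctnnb1. Every silenced library was above every control, and the log2 fold change reached 1.55 with a standard error (SE) of 0.58 (adjusted p = 0.192 in edgeR). Its exons overlap those of Tssk6 on the opposite strand by 375 bases, and Tssk6 had 20, 33 and 43 counts in si-CTL and 37, 30 and 33 in si-Ctnnb1. Ndufb8 belongs to the membrane arm of complex I. It had 2, 8 and 0 counts in si-CTL and 10, 11 and 13 in si-Ctnnb1, again without overlap (log2 fold change 1.64 with an SE of 0.71, adjusted p = 0.296 in edgeR). Without single libraries its log2 fold change ranged from 1.06 (without si-CTL replicate 3) to 3.10 (without si-CTL replicate 2).

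Ndufs8, which carries iron-sulfur clusters in the arm that reduces ubiquinone, lay in the other direction. It had 16, 16 and 20 counts in si-CTL and 4, 11 and 11 in si-Ctnnb1, and all silenced libraries were below the controls (log2 fold change -1.12 with an SE of 0.48, adjusted p = 0.279 in edgeR). Ndufa2, an accessory subunit of the NADH-oxidizing module, was the fourth gene without overlap between the groups. It had 3, 11 and 10 counts in si-CTL and 12, 17 and 18 in si-Ctnnb1 (log2 fold change 0.88 and adjusted p = 0.491 in edgeR). Its exons share 66 bases with those of Tmco6 on the other strand, which had 113 counts against its own 114. Groups that do not overlap were thus seen for 4 of 13 genes, next to 17.8% of all genes tested.

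The best-counted genes gave the tightest values. Atp5j had 230, 258 and 269 counts in si-CTL and 271, 243 and 312 in si-Ctnnb1, a log2 fold change of -0.0016 (SE 0.13). Atp5f1 had 206, 247 and 215 counts in si-CTL and 244, 253 and 268 in si-Ctnnb1, a log2 fold change of 0.069 (SE 0.13). The libraries of both groups overlapped for each gene. The catalytic subunit gene Atp5b had 24, 51 and 33 counts in si-CTL and 17, 29 and 34 in si-Ctnnb1 (log2 fold change -0.53 with an SE of 0.30, adjusted p = 0.492 in edgeR). Cox7c, a small subunit of complex IV and its only gene with enough counts, had 16, 12 and 22 counts in si-CTL and 16, 4 and 12 in si-Ctnnb1 (log2 fold change -0.77, SE 0.48). Without si-Ctnnb1 replicate 2 it was -0.36, and without si-Ctnnb1 replicate 1 it was -1.20. Cox7c, Atp5a1, Atp5h, Ndufa6, Ndufb10 and Ndufs1 lay between -0.77 and 0.41 on the log2 scale, each with overlapping groups. Ndufs1 was at 1.33 without si-CTL replicate 3 and -0.30 without si-CTL replicate 2. Too few counts kept 70 of the 83 genes from the test. Among them was Atp5k, with 3, 13 and 8 counts in si-CTL and 0, 0 and 7 in si-Ctnnb1, and Ndufv3, an accessory subunit of the NADH-oxidizing module, with 6, 18 and 14 in si-CTL and 5, 5 and 10 in si-Ctnnb1.

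**Figure D3:**
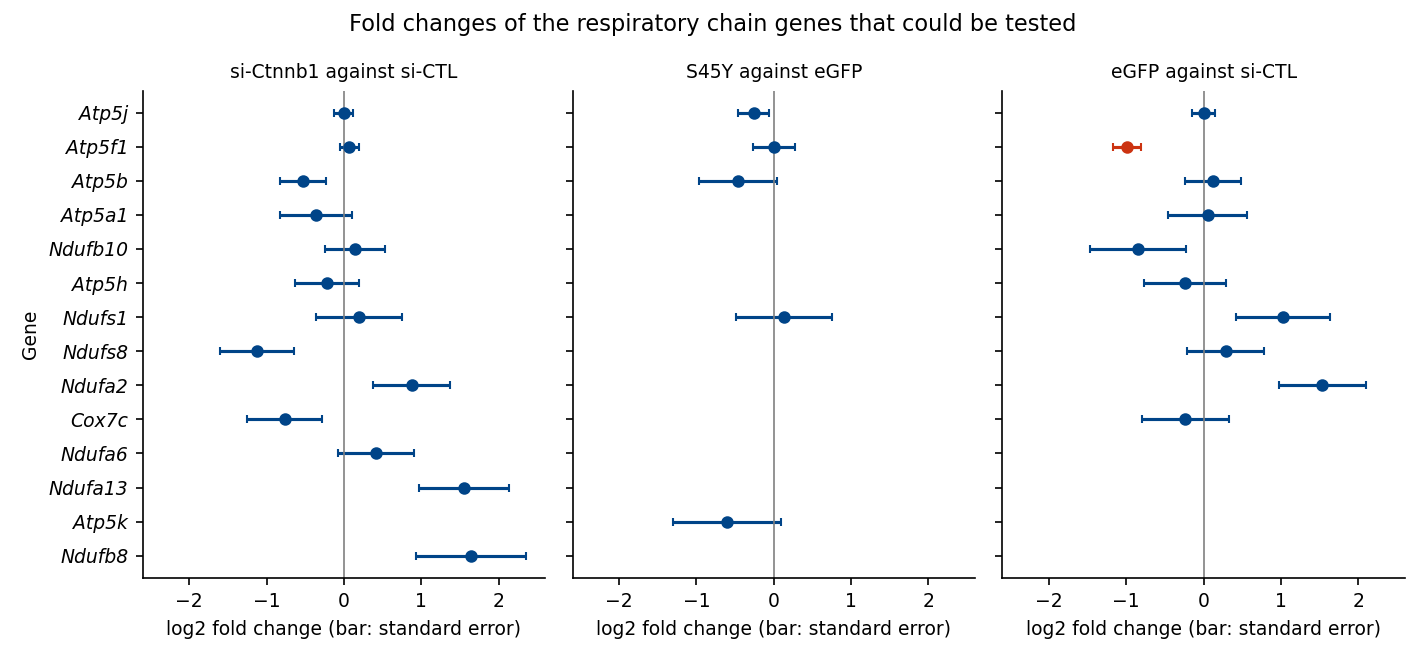
Log2 fold change with its standard error (x axis) of each respiratory chain gene that could be tested (y axis), in si-Ctnnb1 against si-CTL (13 genes), S45Y against eGFP (5 genes) and eGFP against si-CTL (10 genes), in edgeR. The red point, Atp5f1 in eGFP against si-CTL (-0.99), is the 1 value with an adjusted p below 0.05.

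The second comparison, called activation after its design, asks the same of the S45Y plasmid at lower depth. Only 5 genes could be tested between S45Y and eGFP, and none passed an adjusted p of 0.05 in edgeR, as was so for all 1819 genes tested (0%). At an unadjusted p below 0.05 there were also 0, against 5.88% of all genes, and DESeq2 called 0 at an adjusted p of 0.05. The median log2 fold change of the 5 was -0.26, and that of all genes tested was 0.020. The counts of Atp5j were 104, 102 and 94 for eGFP, against 69, 81 and 59 for S45Y. After scaling, the eGFP libraries averaged 967 ± 26.9 CPM and the S45Y libraries 793 ± 193 (SD, n = 3 each), and the S45Y libraries were all lower (log2 fold change -0.26 with an SE of 0.20, adjusted p = 0.974 in edgeR). It was the 1 gene of 5 without overlap, next to 11.1% of all genes tested. As a share of all counts, with or without Rn45s, its groups overlapped, and without S45Y replicate 3 its log2 fold change was -0.087. For Atp5f1 the counts were 52, 41 and 40 (eGFP) against 37, 39 and 36 (S45Y), a log2 fold change of 0.0082 (SE 0.27). Atp5b, Atp5k and Ndufs1 had log2 fold changes of -0.46, -0.61 and 0.13, with SEs from 0.50 to 0.70 and overlapping groups. Atp5k was at -1.60 without S45Y replicate 1 and -0.082 without S45Y replicate 3.

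Ndufa13, Ndufb8 and Ndufs8 had too few counts to be tested here. The eGFP libraries had 3, 2 and 0 counts of Ndufa13 and the S45Y libraries 3, 6 and 3. For Ndufb8 these were 4, 4 and 0 against 0, 5 and 4, and for Ndufs8 they were 11, 5 and 9 against 3, 2 and 9. Most of these values lie near the floor of 3 counts, and no direction can be read from them. Ndufa6, an accessory subunit of complex I with an LYR motif, was counted 6, 5 and 2 times with eGFP but 0, 1 and 1 times with S45Y, too low to be tested.

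**Figure D4:**
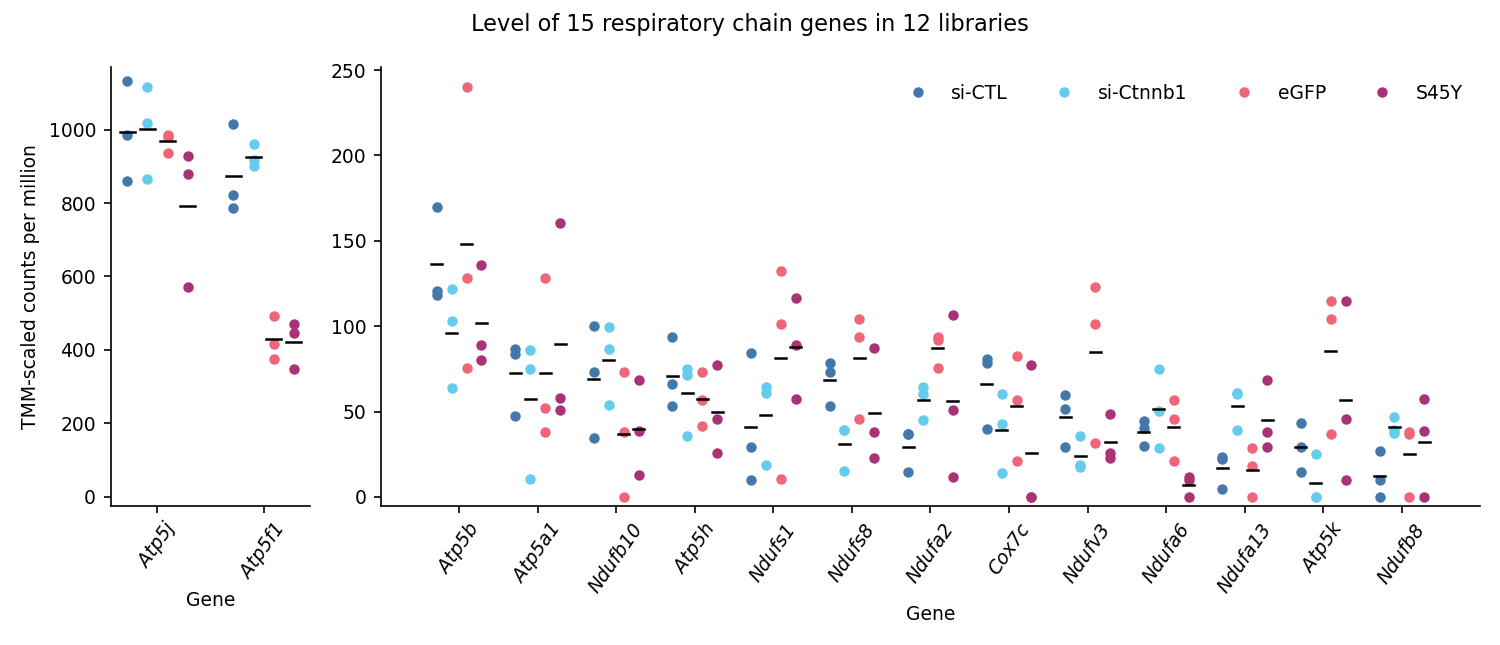
CPM (y axis) of the 15 genes with at least 10 counts in 3 libraries, in 3 libraries (points) of each of 4 groups, with the group mean as a line. Atp5j was at 572 to 1132 in every library, Atp5f1 was at 787 to 1014 in the siRNA libraries and at 349 to 493 in the plasmid libraries, and the other 13 genes stayed at or below 240 (Atp5b in eGFP replicate 3).

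The transfections were compared through their controls. This comparison is not one of the study's own, and it shares the si-CTL libraries with the silencing comparison and the eGFP libraries with the activation comparison. In eGFP against si-CTL, 1 of the 10 genes tested passed an adjusted p of 0.05, where 16.9% of all 2459 genes did in edgeR (8.95% as lower in eGFP), so the share called was not above that of all genes. That gene was Atp5f1, with 206, 247 and 215 counts in si-CTL and 52, 41 and 40 in eGFP. After scaling it was 874 ± 122 CPM in si-CTL and 429 ± 58.8 in eGFP (SD, n = 3 each), so that every eGFP library was lower (log2 fold change -0.99 with an SE of 0.18, adjusted p = 5.9e-05 in edgeR). The treated libraries, which that comparison does not use, gave the same direction, with 244, 253 and 268 counts in si-Ctnnb1 and 37, 39 and 36 in S45Y (log2 fold change -1.12 with an SE of 0.18, adjusted p = 2.2e-05 in edgeR, where 20.6% of all genes passed). This last comparison was added after the values had been seen.

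Atp5j did not follow. Its log2 fold change in eGFP against si-CTL was 0.0026 (SE 0.15), and in S45Y against si-Ctnnb1 it was -0.33 (SE 0.17, adjusted p = 0.191 in edgeR). A ratio of both genes within a library does not depend on how libraries are scaled. The counts of Atp5f1 per count of Atp5j were 0.896, 0.957 and 0.799 in si-CTL and 0.900, 1.04 and 0.859 in si-Ctnnb1. They were 0.500, 0.402 and 0.426 in eGFP and 0.536, 0.481 and 0.610 in S45Y. All 6 plasmid libraries were below all 6 siRNA libraries, while the treated and control libraries of each transfection overlapped.

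**Figure D5:**
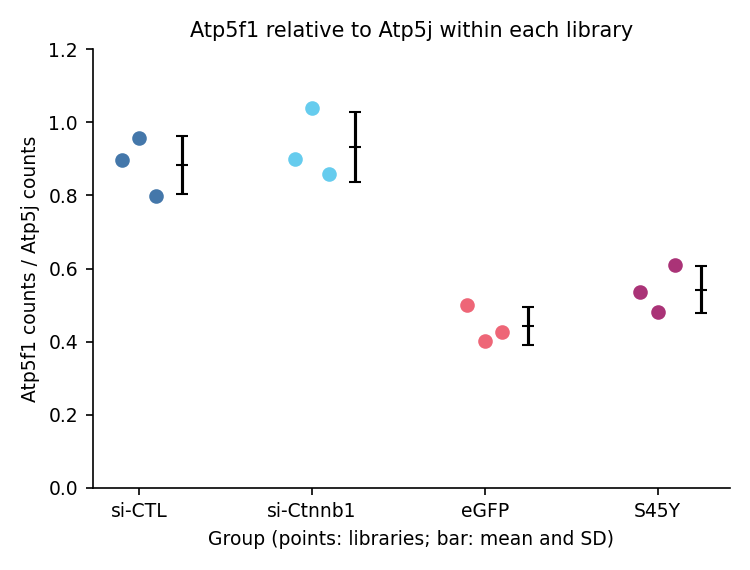
Counts of Atp5f1 divided by counts of Atp5j in each library (y axis, no unit) for 3 libraries of each group (x axis; the bar is the mean and SD). The si-CTL libraries averaged 0.884 and the si-Ctnnb1 libraries 0.933, whereas the averages were 0.443 for eGFP and 0.542 for S45Y.

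The plasmid and siRNA libraries differ in nucleic acid, reagent, time and depth together, so their parts in the level of Atp5f1 cannot be told apart. Beside it, Rn45s was at 3.64% to 5.50% of counts in si-CTL and 10.03% to 15.4% in eGFP, and the summed counts of the 13 cholangiocyte markers, per 1000000 counts, were 970 to 1344 and 1398 to 2012, with Krt8 and Krt18 higher in eGFP (adjusted p = 0.000580 and 0.00162 in edgeR). The part of the marker levels in the result was not tested. With totals without Rn45s the log2 fold change of Atp5f1 was -0.96 (adjusted p = 1.0e-04 in edgeR). Ndufa2 had 3, 11 and 10 counts in si-CTL and 8, 10 and 9 in eGFP, which after scaling did not overlap (log2 fold change 1.54 with an SE of 0.56, adjusted p = 0.0503 in edgeR). It was the other of 2 genes of 10 without overlap, next to 31.7% of all genes tested. In S45Y against si-Ctnnb1 its log2 fold change was 0.065. The other 8 genes tested lay between -0.84 (Ndufb10, of the membrane arm of complex I) and 1.02 (Ndufs1) on the log2 scale, with overlapping groups and SEs from 0.15 to 0.62. Ndufb10 was at -1.82 without eGFP replicate 2 and -0.36 without eGFP replicate 3, and Ndufs1 was at 2.12 without si-CTL replicate 3 and 0.45 without eGFP replicate 1. The median over the 10 genes was 0.029, and over all genes tested it was 0.010.

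Other genes of energy metabolism were read from lists written by hand. Beside their counts at an unadjusted p below 0.05 stand shares over all genes of 12.5% in silencing, 5.88% in activation and 29.2% between the controls. DESeq2 gave an adjusted p to all list genes tested in activation and between the controls, but in silencing to 7 of 8 assembly factors, 2 of 5 transcription genes, 1 of 5 citric acid cycle genes, 6 of 11 glycolysis genes and 3 of 8 mitochondrial ribosomal protein genes. Of 48 assembly factors in the table, 8 could be tested in silencing. Among them Cox15, which makes heme A for complex IV, was higher in si-Ctnnb1, with 17, 26 and 20 counts in si-CTL and 39, 51 and 51 in si-Ctnnb1 (log2 fold change 1.05 and adjusted p = 0.0421 in edgeR), and 444 of its exon bases are shared with the other strand. This was 1 of 8, next to 1.55% of all genes, and DESeq2 did not call it. At an unadjusted p below 0.05, 1 assembly factor was higher and 1 lower. In activation and between the controls 8 were tested and 0 passed in edgeR or DESeq2, with 1 and 2 at an unadjusted p below 0.05. Of 13 genes for the transcription of respiratory chain genes and the upkeep of mitochondrial DNA, 5, 3 and 5 could be tested in silencing, activation and between the controls, and 0 passed in edgeR or DESeq2, with 0, 0 and 2 at an unadjusted p below 0.05. Polg, the mitochondrial DNA polymerase, had the most counts of these, with 1101, and 921 of its exon bases are shared with the other strand. Gabpa was among those tested, with 20, 53 and 47 counts in si-CTL and 47, 50 and 47 after silencing, and with 11, 15 and 8 in eGFP and 7, 10 and 24 with S45Y. Its log2 fold change was 0.18 in silencing, 0.48 in activation and -0.43 between the controls, with SEs of 0.25, 0.49 and 0.37.

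Of 19 genes of pyruvate dehydrogenase and the citric acid cycle, 5 could be tested in silencing and 1 in the other comparisons, and 0 passed in edgeR or DESeq2, with 0 at an unadjusted p below 0.05. Of 19 glycolysis genes, 11 and 6 could be tested in silencing and activation, of which 0 passed in edgeR or DESeq2, with 1 and 0 at an unadjusted p below 0.05. Between the controls 3 of 8 passed, next to the 16.9% of all genes. Pfkm and Pfkp, isoforms of phosphofructokinase, were lower in eGFP (log2 fold changes -1.20 and -0.76, adjusted p = 0.00298 and 0.000139 in edgeR), and the pyruvate kinase gene Pkm was higher (0.70, adjusted p = 0.0410 in edgeR). DESeq2 called Pfkm and Pfkp but not Pkm. Pfkp shares 748 exon bases with the other strand. Of 77 mitochondrial ribosomal protein genes, 8, 4 and 4 could be tested. In silencing and activation 0 passed in edgeR or DESeq2, with 0 and 1 at an unadjusted p below 0.05. Between the controls Mrpl10 was higher in eGFP and Mrps25 lower (log2 fold changes 1.40 and -0.43, adjusted p = 0.0467 and 0.00316 in edgeR), which is 2 of 4 genes next to 16.9% of all genes. DESeq2 called Mrps25 but not Mrpl10. Mrpl10 had 2, 14 and 30 counts in si-CTL and 27, 7 and 12 in eGFP, and these groups overlapped after scaling. Of the 5 subunits and cofactors of the chain outside the symbol rule, Atpif1, which inhibits the reverse reaction of ATP synthase, had the most counts with 65, and none had enough to be tested. Of 13 mitochondrially encoded subunits, 0 were in the count table under the symbols searched, so they could not be analysed here.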

How the data were processed

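RNA of 12 SMCC libraries was measured by RNA-seq. The authors filtered the reads, aligned them to mm10 and deposited counts per gene symbol, whole numbers without normalization. The submitters' processing notes name Trimmomatic 0.38, HISAT2 2.1.0 and HTSeq 0.11.2. The annotation, strand setting and read type are not given in the sources used here. Total counts of 91468 to 326686 per library limit the precision.

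The tests were run with edgeR 4.0.16 under R 4.3.3 (filterByExpr with a minimum count of 10 and a minimum total of 15, TMM, quasi-likelihood test, prior count 0.125), each comparison on its 6 libraries, with Benjamini-Hochberg adjustment over all genes tested. edgeR was used as the main test and DESeq2 1.42.0, the package of the study's methods, as an alternative. CPM values were scaled by TMM over all 12 libraries. No set test was made. Code was tested on simulated data. Positions and overlaps came from GENCODE M21 (mm10), which matched 98.2% of symbols, and promoters from RefSeq.

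The genes and lists were chosen with earlier results of these data known. Named are genes with at least 10 counts in 3 libraries or an unadjusted p below 0.05, those with 10 counts in 2 libraries as just outside, list genes with an adjusted p below 0.05 or, where there is none, the one with the most counts, and genes overlapping a named one. A gene under this rule is not reported here. Gapdh, Sdha, Sdhb, Cox4i1, Atp5o, the 7 genes with no count and, in the closing section, Cox20, Ttc19, Sco2 and Surf1 were chosen after their values were seen. Replicate libraries differed by more than the sampling noise of independent counts and were all kept.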

Additional observations from a re-analysis of the deposited data

How the results depend on the processing

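With each library left out, other size factors, other filters, a fit of all 12 libraries or DESeq2, silencing and activation gave 0 respiratory chain genes with an adjusted p below 0.05. Between the controls 2 passed, Atp5f1 and Ndufa2, with totals without Rn45s (log2 fold change of Ndufa2 1.56, adjusted p = 0.0460 from edgeR) and with a filter of 10 counts in 3 libraries (1.53, adjusted p = 0.0436 from edgeR). The log2 fold change of Atp5f1 between the controls stayed between -1.27 and -0.90. Replicate numbers did not pair the libraries: deviations of same-numbered libraries correlated between -0.0459 and 0.0336. With the replicate number as a block, 0, 0 and 1 genes passed in silencing, activation and between the controls, with median log2 fold changes of 0.072, -0.27 and -0.0028, and Atp5a1 between the controls was at -0.011.

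The median log2 fold change in silencing was -0.16 without a filter (74 genes) and -0.20 in the fit of all 12 libraries (11 genes), and with single libraries left out it ranged from -0.15 to 0.062. Between the controls that range was 0.070 to 0.45. The share of the 83 genes in si-CTL, si-Ctnnb1, eGFP and S45Y was 0.201%, 0.188%, 0.187% and 0.158% without Atp5j, and 0.0926%, 0.0718%, 0.109% and 0.0769% without genes that overlap another on the opposite strand. With totals without Rn45s it was 0.311% in eGFP and 0.262% in S45Y. With single libraries left out it ranged from 0.284% to 0.297% in si-CTL, 0.266% to 0.291% in si-Ctnnb1, 0.264% to 0.283% in eGFP and 0.214% to 0.237% in S45Y.

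The signs that changed belonged to genes whose value in the main fit was smaller than its standard error. The changed value of Atp5j between the treated libraries, -0.33, was larger than its SE of 0.17. In silencing Atp5j was 0.020 in DESeq2, 0.023 without a filter and 0.019 in the fit of all 12 libraries. In activation Atp5f1 was -0.026 in DESeq2, -0.0076 with RLE factors, -0.014 with totals without Rn45s, -0.018 without a filter and -0.035 in the fit of all 12. Between the controls Atp5j was -0.12 in DESeq2, -0.00030 with RLE factors, -0.28 without a filter, -0.030 in the fit of all 12 and -0.33 between the treated libraries, Atp5a1 was -0.064 in DESeq2 and -0.22 without a filter, and Atp5b was -0.16 without a filter. With single libraries left out, the ranges that crossed 0 in silencing were -0.78 to 0.14 for Atp5a1, -0.0014 to 0.20 for Atp5f1, -0.40 to 0.062 for Atp5h, -0.098 to 0.11 for Atp5j, -0.12 to 0.51 for Ndufb10 and -0.30 to 1.33 for Ndufs1. In activation they were -0.80 to 0.022 for Atp5b, -0.095 to 0.11 for Atp5f1 and -0.38 to 0.64 for Ndufs1. Between the controls they were -0.69 to 0.33 for Atp5a1, -0.44 to 0.39 for Atp5b, -0.12 to 0.077 for Atp5j and -0.73 to 0.070 for Cox7c. The causes were not tested.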

Other observations

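Some assembly factors, picked for their counts, had more counts than whole complexes of subunits, although the median over all 48 was 13.5 counts, with 5 at 0, against 21.0 for the 83 subunit genes. Cox20, a chaperone for the assembly of complex IV, had 2738 counts over all 12 libraries, against 382 for the 18 subunits of complex IV together. Ttc19, which acts in complex III assembly, had 1220 counts, against 215 for the 8 subunits of complex III. Sco2, which delivers copper to complex IV, had 1180 counts, and Surf1, which acts early in its assembly, had 730. The exon bases shared with the other strand were 804 for Cox20, 829 for Sco2, 137 for Surf1 and 1 for Ttc19. The part of strand in these counts was not tested.

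Small even counts were frequent among the respiratory chain genes. Of their 996 values, 73 were 1 and 158 were 2, then 53 were 3 and 77 were 4, and 34 were 5 and 35 were 6. Over all genes of the table, 17980 values were 1 and 18882 were 2. There were thus 0.462 values of 1 for each value of 2 among the 83 genes, against 0.952 over all genes. What sets this difference was not tested.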
